A study of Mus musculus with 11 samples.

Results

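The transcriptome of wild type (WT) polymorphonuclear cells (PMNs, the neutrophils) from the mouse peritoneum was described from the 5 WT libraries of a series of 11. The libraries were chosen by their genotype label alone, and the 6 FOXO3 KO libraries were not compared with them. The mice were C57BL/6, male and female, 6 to 8 weeks old, with an intact Foxo3 gene. Casein was the one agent given. It was injected into the peritoneum on 2 successive days, and the cells were harvested 3 h after the second injection and enriched on a density gradient. Each library held total RNA from the PMNs of 1 mouse, sequenced as paired ends. All 5 libraries were thus of recruited, casein-exposed PMNs, and PMNs of blood, of bone marrow or of an untouched peritoneum were not measured.

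PMNs are short-lived phagocytes that leave the blood for a site of injury, follow chemoattractants through G protein-coupled receptors, and kill microbes with preformed granule proteins and with superoxide made by the NADPH oxidase. Most granule proteins are made in bone marrow precursors, first those of azurophil granules and then those of specific and gelatinase granules, so that a mature cell carries proteins whose mRNA it no longer holds. Recruited PMNs also make chemokines and cytokines of their own, largely under NF-kB.

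Expression was given as TPM, a measure of transcript abundance scaled to the same total in every library and corrected for transcript length, so that levels of different genes could be set side by side. A gene is called expressed where it had at least 1 TPM in each of the 5 WT libraries, and absent where it had under 0.1 TPM in each. The libraries are named by their column numbers, which are WT 03 and WT 08 (2-digit numbers) and WT 1, WT 2 and WT 3 (1-digit numbers). Values of the 5 libraries are given in that order, and summaries are mean ± SD (n = 5 mice). The listed genes summed to between 935496 and 952238 TPM per library. Read depth is unknown, so the counting error of a low TPM value is not known either, and absent means only under 0.1 TPM in these libraries.

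The 5 markers that define the cells were expressed in every library. S100a9 and S100a8, the chains of calprotectin, a cytosolic protein that binds calcium and zinc, were first and second of all genes by mean TPM. Ly6g, the surface antigen used to stain mouse PMNs, had 88.98, 139, 50.4, 179.5 and 148 TPM. Csf3r, the receptor of the granulocyte growth factor G-CSF, had 308, 344, 414, 779 and 577 TPM. Both 2-digit libraries lay below all 1-digit ones in TPM, and they overlapped after rescaling by median-of-ratios factors, which set the median gene alike in every library. Cxcr2, the receptor of the CXC chemokines that attract PMNs, had 102, 162, 81.8, 255 and 200.4 TPM. WT 03 and WT 1 were the lowest libraries for Cxcr2, S100a9 and S100a8. Of the 20 listed markers of mature PMNs, all 20 were expressed and 19 averaged at least 100 TPM, among them Retnlg, Mmp8, Fpr1, Itgam, Cd177 and Mmp9.

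The promoters of S100a9, Saa3 and Cxcl2 are shown because S100a9 heads the ranking, and Saa3 and Cxcl2 are the least and the most even of the 10 leading genes. Each is the 250 bases before the gene's annotated start in RefSeq (GRCm38.p6), 5′ to 3′ on the gene's strand. Capitals mark words commonly read for factors of the myeloid lineage, searched on both strands: TTGCNNAA for C/EBP, GGG, any 3 bases and then TTCC for NF-kB and GAGGAA for PU.1, and TATAAA on the gene's strand for the TATA box. The windows are S100a9 at chr3:90695722-90695971 (minus strand), Saa3 at chr7:46715677-46715926 (minus strand) and Cxcl2 at chr5:90903649-90903898 (plus strand).
S100a9: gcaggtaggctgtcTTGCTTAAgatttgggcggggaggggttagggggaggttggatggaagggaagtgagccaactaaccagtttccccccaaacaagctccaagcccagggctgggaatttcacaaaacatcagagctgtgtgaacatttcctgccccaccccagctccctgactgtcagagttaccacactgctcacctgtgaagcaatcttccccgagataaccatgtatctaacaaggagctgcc
Saa3: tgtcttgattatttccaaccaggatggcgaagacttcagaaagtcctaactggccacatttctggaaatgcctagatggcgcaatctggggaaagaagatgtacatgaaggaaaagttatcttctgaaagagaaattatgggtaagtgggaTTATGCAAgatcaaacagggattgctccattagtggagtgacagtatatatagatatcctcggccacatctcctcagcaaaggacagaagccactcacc
Cxcl2: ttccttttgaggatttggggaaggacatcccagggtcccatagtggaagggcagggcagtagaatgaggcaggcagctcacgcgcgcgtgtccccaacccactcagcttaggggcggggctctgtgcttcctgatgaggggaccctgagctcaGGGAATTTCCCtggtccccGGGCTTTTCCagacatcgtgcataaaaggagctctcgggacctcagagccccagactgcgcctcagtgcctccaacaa

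The S100a9 window held 1 C/EBP word, TTGCTTAA at -236 from the start, and the Saa3 window 1, TTATGCAA at -99. The Cxcl2 window held 3 NF-kB words, of which GGGAATTTCC at -97 and GGAATTTCCC at -96 overlap on opposite strands and GGGCTTTTCC lies at -78. Over all 32851 promoter windows of this length, the C/EBP word was found in 9.56%, the NF-kB word in 4.65%, the PU.1 word in 23.3% and the TATA box in 7.59%. A gene was counted where any of its windows held the word. The counts and shares of genes that follow are thus not the same measure as these shares of windows. Of the 25 most abundant protein-coding genes, 20 matched a window, and 5 of these held the C/EBP word, 3 the NF-kB word, 6 the PU.1 word and 4 the TATA box. Among the 7216 expressed protein-coding genes with a window, 9.202% held the C/EBP word, 6.29% the NF-kB word, 26.7% the PU.1 word and 4.56% the TATA box. Among the 5340 absent ones these shares were 11.7%, 4.14%, 22.9% and 15.5%, so the C/EBP word was less frequent in expressed than in absent genes. A word in a window is a description of its letters and no evidence of binding.

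Few genes held most of the transcriptome. Of the 54164 listed genes, 9845 (18.2%) were expressed, 31498 were absent and 24660 of those had 0 TPM in all 5 libraries. Among protein-coding genes 8866 of 21503 (41.2%) were expressed and 7455 were absent. The 10 genes with the highest mean held 21.6% of the listed TPM in WT 03, 33.5% in WT 08, 26.4% in WT 1, 30.7% in WT 2 and 31.4% in WT 3 (28.7 ± 4.75%). The first 155, 69, 130, 92 and 77 genes of each library reached 50% of its TPM. WT 03 and WT 1 were the least concentrated libraries by both measures. By mean level, 7 genes lay at 10000 TPM or more and held 26.4% of the TPM, 111 lay between 1000 and 10000 TPM and held 24.7%, and 993 lay between 100 and 1000 TPM and held 29.7%.

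S100a9 had 70062, 148716, 75939, 130057 and 128522 TPM and was the first gene of every library. S100a8 had 45016, 88865, 50311, 83104 and 83486 TPM. The pair lies on chromosome 3 (GRCm38, GENCODE M21), S100a8 at 90668978 to 90670035 on the plus strand and S100a9 at 90692632 to 90695721 on the minus strand. Together they held 12.1%, 25.1%, 13.5%, 22.6% and 22.5% of the TPM, the low libraries being WT 03 and WT 1 and the others not overlapping them. The ratio of S100a9 to S100a8 was far more even, at 1.56, 1.67, 1.51, 1.56 and 1.54. S100a9 exceeded S100a8 in 5 of 5 libraries.

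Saa3, an acute phase apolipoprotein made outside the liver, was of rank 3 by mean and the least even of the leading genes. It had 27727, 5791, 51799, 7886 and 6202 TPM, with a mean of 19881 ± 20061 TPM, and was the gene of rank 2 in WT 1 and of rank 3 in WT 03. Without WT 1 its mean was 11902 TPM. Saa1 had 7.78, 5.09, 50.5, 6.09 and 5.696 TPM, again highest in WT 1, and the liver genes Crp and Orm2 averaged 0.0524 ± 0.0543 and 0.1297 ± 0.0547 TPM. Orm1, another acute phase gene, had 8.498, 19.7, 129, 15.1 and 28.1 TPM and was also highest in WT 1, and was lowest in WT 03.

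Ranks 4 to 10 were Ftl1, Cxcl2, Lcn2, Retnlg, Tmsb4x, Srgn and Ccl4. Ftl1, the light chain of the iron store ferritin, averaged 14274 ± 2644 TPM. Lcn2, which withholds iron from bacteria by binding their siderophores, had 5660.0, 10423, 11053, 13068 and 12941 TPM, both 2-digit libraries lying below the 1-digit ones in TPM but overlapping them after rescaling. Retnlg, a resistin-like secreted protein of PMNs, averaged 10296 ± 3521 TPM. Tmsb4x, which holds actin monomers, averaged 8440.3 ± 1586 TPM and Srgn, the proteoglycan core of granules, 6810.2 ± 1211 TPM. Ranks 11 to 25 included Il1rn, Ccl3, S100a6, S100a11, Wfdc17, Spp1, Actg1, B2m, mt-Co1, Actb, Lilr4b, Tyrobp, Gapdh and Tpt1, from 6245 ± 1552 TPM for Il1rn to 3073 ± 473 TPM for Tpt1. Beyond the first rank the order was loose: no other neighbouring pair among the first 26 genes kept its order in all 5 libraries, and the plot of 24 of the 25 leading genes shows their ranges crossing. Lilr4b and Lilrb4a are near-identical copies, and Gm28661, Gm29216 and Gm10925, at 2697 ± 627, 2116 ± 523 and 1689 ± 455 TPM, are annotated pseudogenes that could share reads with other genes, so their separate levels are uncertain.

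**Figure D1:**
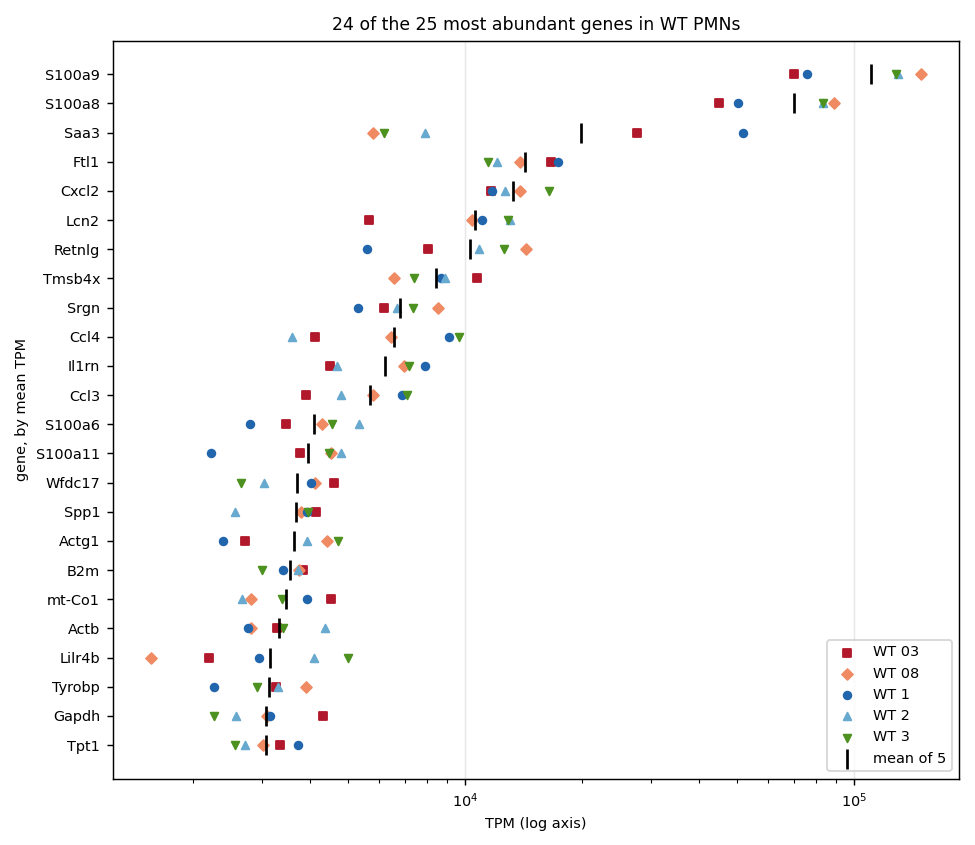
TPM of 24 of the 25 genes with the highest mean in WT PMNs, on a log axis, with 1 marker per library and a bar at the mean. S100a9 lies above S100a8 in all 5 libraries, and Saa3 spans 5791 TPM in WT 08 to 51799 TPM in WT 1.

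When every gene was placed in 1 functional class, S100 proteins took the largest share of any named class, 20.1 ± 6.04% of the listed TPM, and genes in no class held 34.01 ± 3.27%. The next classes were chemokines, cytokines and growth factors at 6.02 ± 0.799%, other secreted proteins at 5.403 ± 1.896%, cytosolic ribosomal proteins at 5.23 ± 2.39%, surface receptors and sensors at 4.56 ± 0.52996%, the actin cytoskeleton at 3.88 ± 0.364% and granule proteins at 3.39 ± 0.593%. Iron and ferritin genes held 1.76 ± 0.328%, the mitochondrial genome 1.61 ± 0.364% and interferon-stimulated genes 1.42 ± 0.296%. The mitochondrial class counts only genes whose names start with mt-. The pseudogenes Gm28661 and Gm29216, which could share reads with other genes, were in no class. Glycolysis and other carbohydrate genes held 1.35 ± 0.241% and all lipid genes 0.925 ± 0.0763%. The TCA cycle and nuclear oxidative phosphorylation genes, with the itaconate gene Acod1 among them, together held 0.997 ± 0.204%. Transcription factors, with NF-kB and immediate early genes, held 1.54 ± 0.115%. Shares of one library are parts of one total, so a library low in S100 proteins, such as WT 03 at 13.1% or WT 1 at 14.2%, leaves more for every other class.

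Relative to its mean, the share of cytosolic ribosomal proteins varied more between libraries than that of S100 proteins, which had the larger SD in percent of TPM. The ribosomal proteins held 8.32, 7.09, 4.65, 3.09 and 3.02%, so that both 2-digit libraries lay above all 1-digit ones. Of the 83 genes averaging 1 TPM or more, 73 had the same order, against a background of 11.7% of 11973 genes with both 2-digit libraries above all 1-digit libraries and 13.9% with both below. After rescaling by median-of-ratios factors 77 of the 83 had it, against 20.2% of all genes above and 14.7% below. Rps27 had 3566, 3700.0, 1469, 1224 and 1245 TPM and Rps29 3519.6, 2671, 1482, 1092 and 1017 TPM. The 2-digit and the 1-digit libraries also differed by sex-linked genes: Xist, expressed from the inactive X chromosome of females, had 0.115, 0.0447, 67.5, 37.2 and 42.1 TPM, and the Y-linked Eif2s3y had 61.05, 56.7, 0, 0.0115 and 0.195 TPM. The numbering of the columns and the sex of the mice therefore cannot be told apart in these 5 libraries, and with 2 against 3 libraries no exact test could reach a two-sided p below 0.2, so none was made.

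**Figure D2:**
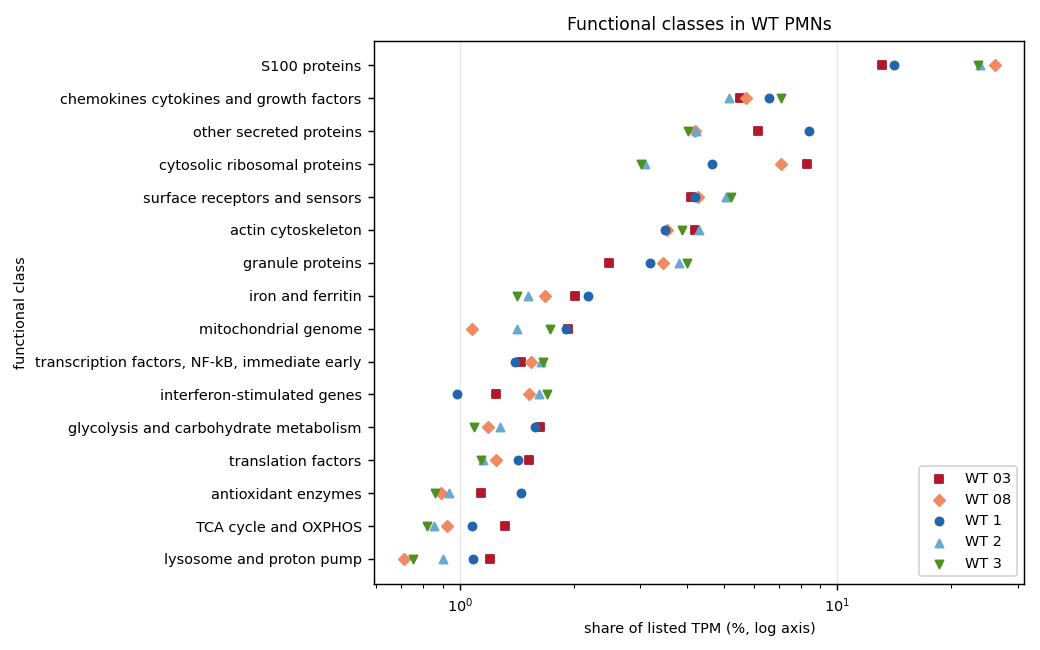
Share of the listed TPM (%) held by 16 functional classes in each WT library, 1 marker per library, on a log axis. S100 proteins are lowest in WT 03 and WT 1, and ribosomal proteins are highest in WT 03 and WT 08.

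Among S100 proteins 8 of 15 were expressed. After S100a9 and S100a8 came S100a6 at 4094 ± 986 TPM and S100a11 at 3956 ± 1038 TPM, both calcium-binding proteins found in many cell types. S100a4 had 1641, 396, 594, 625 and 340.1 TPM and S100a10, the partner of annexin A2, had 735, 189.5, 479.8, 351 and 226 TPM. Both were highest in WT 03, the library with the least S100a9, and S100b and S100g were absent.

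Granule genes differed by the kind of granule. Of the 19 listed genes of specific and gelatinase granules, 18 were expressed, Fcnb being the one in between at 0.914 ± 0.162 TPM. Ngp had 1360.1, 3432, 2321, 2375 and 4111 TPM, Mmp8, a collagenase, 705, 1391, 1066, 1761 and 1881 TPM, and Ltf, the iron-binding lactoferrin, 248, 626, 569, 539 and 918 TPM. For each of them WT 03 was lowest and WT 3 highest. Camp, the cathelicidin precursor, averaged 249 ± 127 TPM, Mmp9, gelatinase B, 438 ± 212 TPM, and Olfm4 207 ± 89.6 TPM.

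Of the 14 azurophil granule genes 8 were expressed. The leading ones were Srgn, Lyz2 (lysozyme, 2578 ± 999 TPM), Ctsc (366 ± 85.8 TPM), the protease that activates the serine proteases, and Cd63 (309 ± 94.5 TPM), none of which is particular to azurophil granules. The genes that define these granules were near the floor. Mpo, myeloperoxidase, had 0, 0.126, 0.571, 0.433 and 3.004 TPM, Elane, neutrophil elastase, 0.196, 0, 0.476, 0.0834 and 1.25 TPM, and Ctsg, cathepsin G, 0.255, 0.248, 0.838, 0.122 and 2.799 TPM. Prtn3, proteinase 3, stayed at 2.18, 3.05, 2.74, 4.22 and 5.08 TPM in every library and so met the threshold for expressed. Elane and Mpo thus lay below Ltf and Camp in all 5 libraries.

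All listed subunits of the phagocyte NADPH oxidase were expressed. Cybb and Cyba, its membrane subunits, averaged 201 ± 51.1 and 1046 ± 242 TPM, and Ncf1 and Ncf4, the cytosolic subunits p47 and p40, averaged 743 ± 287 and 464 ± 115 TPM. Rac2, the small GTPase of the complex, had 869 ± 107 TPM and Rac1 341 ± 48.6 TPM. Of the oxidases of other tissues, Nox3, Duox1 and Duox2 were absent, as was the subunit gene Noxa1. Nox1 did not exceed 0.109 TPM in any library, and Nox4 and Noxo1 lay at 0.113 ± 0.106 and 0.381 ± 0.0908 TPM. Padi4, which citrullinates histones in extracellular traps, had 89.1, 108, 66.9, 193 and 201 TPM.

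Inhibitors of cysteine proteases were led by Cstb (stefin B) at 1823 ± 459.8 TPM, with Gm5483 at 1601 ± 451 TPM and Stfa2l1 at 822 ± 230.0 TPM from the stefin A cluster. The members of that cluster are close copies, so their separate levels are uncertain. All 38 of 38 actin cytoskeleton genes were expressed, the listed group with the most even levels: its median coefficient of variation (CV, SD over mean) between libraries was 16.1%, against 33.2% over all 11973 genes that averaged 1 TPM or more. Cfl1, which severs actin filaments, averaged 1686 ± 206 TPM, Pfn1 1473 ± 182 TPM and Coro1a 679.9 ± 177 TPM.

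Of the 372 genes listed as surface receptors and sensors 238 (64.0%) were expressed and 27 were absent, beside 41.2% and 34.7% of all protein-coding genes. The lists hold genes picked for immune cells, so the higher share is a property of how they were put together as well. Every other list was picked too, so its count of expressed genes is to be read beside the same shares of all protein-coding genes.

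**Figure D3:**
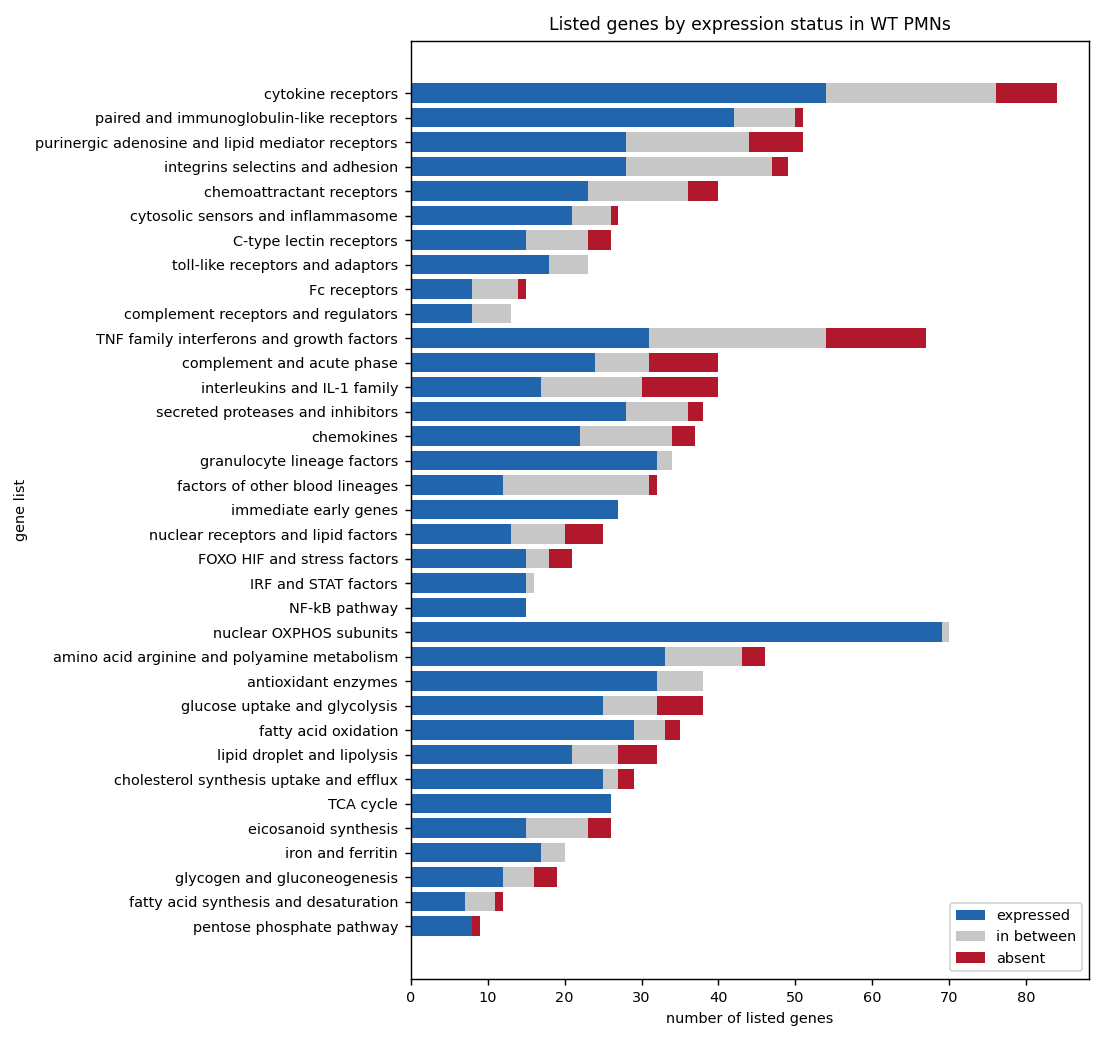
Number of listed genes that were expressed (at least 1 TPM in each of the 5 WT libraries), in between, or absent (under 0.1 TPM in each), for 35 lists of receptors, secreted factors, transcription factors and metabolic genes. Chemoattractant receptors had 23 expressed and 4 absent of 40, and interleukins 17 expressed and 10 absent of 40.

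Chemoattractant receptors were headed by Hcar2, Fpr1 and Fpr2. Hcar2, the receptor of hydroxybutyrate and nicotinic acid, had 957, 1846, 985, 1285 and 1825 TPM. Fpr1 and Fpr2, which sense formyl peptides of bacteria and mitochondria, averaged 1284 ± 324 and 909 ± 121 TPM. Ccrl2, a receptor that binds chemerin without signalling, averaged 629.6 ± 199.6 TPM, C5ar1, the receptor of C5a, 391 ± 77.9 TPM and Ccr1, a receptor of Ccl3, 307 ± 61.8 TPM. Cxcr2 exceeded its paralog Cxcr1, at 8.097, 10.4, 4.19, 13.2 and 8.96 TPM, in all 5 libraries. Ltb4r1, for leukotriene B4, averaged 52.2 ± 9.39 TPM, Cxcr4, which holds PMNs in the marrow, 43.2 ± 18.3 TPM and Ccr2, of inflammatory monocytes, 23.9 ± 16.3 TPM. Cx3cr1 and Cxcr3 lay at 0.6096 ± 0.342 and 0.689 ± 0.604 TPM, and Ackr4, Fpr-rs3, Fpr-rs4 and Fpr-rs6 were absent.

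Toll-like receptors covered most classes of ligand. Tlr2, for bacterial lipoproteins, had 249.8, 378, 203, 274 and 348 TPM and was the highest Toll-like receptor in all 5 libraries. Tlr13, which in mice recognises bacterial ribosomal RNA, averaged 155 ± 23.5 TPM, Tlr4, for lipopolysaccharide, 57.6 ± 11.8 TPM and its partner Ly96 51.5 ± 12.96 TPM. Tlr6 and Tlr1, which pair with Tlr2, averaged 47.3 ± 3.89 and 46.4 ± 15.4 TPM, and the endosomal Tlr7, Tlr8 and Tlr9 19.05 ± 6.22, 10.1 ± 4.06 and 8.502 ± 3.11 TPM. Tlr5, for flagellin, averaged 1.16 ± 0.455 TPM, and Tlr3 and Tlr12 lay at 0.274 ± 0.2105 and 0.0763 ± 0.0662 TPM. Of the 23 genes in the list 18 were expressed and 0 were absent, the adaptor Myd88 averaging 148 ± 31.1 TPM.

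Among cytosolic sensors and inflammasome genes, 21 of 27 were expressed. Casp4, the caspase that binds lipopolysaccharide, averaged 274 ± 64.999 TPM, Nlrp3 184 ± 71.6 TPM, Mefv (pyrin) 153 ± 47.7 TPM and the adaptor Pycard 144 ± 60.1 TPM. Casp1, which cleaves the precursor of IL-1 beta, averaged 44.6 ± 10.4 TPM and Gsdmd, which forms the pore, 91.9 ± 17.2 TPM. Nlrp6 was absent and Nlrp1a and Nlrp1b lay at 0.863 ± 0.236 and 0.3896 ± 0.207 TPM.

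C-type lectin receptors were led by a neighbouring pair on chromosome 6, Clec4d and Clec4e, which bind mycobacterial glycolipids and signal through Fcer1g. Clec4d had 2111, 3074, 2464, 2165 and 3178 TPM and Clec4e 1936, 2008, 1410.3, 1551 and 1547 TPM. Clec4n (dectin-2) averaged 511 ± 189.8 TPM, Clec7a (dectin-1) 215 ± 118 TPM, Clec5a 191 ± 85.7 TPM and the inhibitory Clec12a 157 ± 84.2 TPM. In all 5 libraries Clec4d stood above each of these. Clec4f, Clec4g and Clec14a were absent and 15 of 26 genes were expressed.

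Fc receptors were led by those of myeloid cells. Fcer1g, the signalling chain of the activating ones, averaged 2435 ± 301 TPM. Fcgr3, a low affinity activating receptor of IgG, averaged 741 ± 102 TPM, the inhibitory Fcgr2b 543 ± 148 TPM and Fcgr4 99.3 ± 26.5 TPM. Fcgr1, the high affinity receptor, had 171, 27.96, 63.98, 69.5 and 30.2 TPM, highest in WT 03. The receptors typical of B cells, Fcmr and Fcrla, had 20.8, 32.2, 1.95, 0.539 and 2.44 and 18.03, 23.4, 2.02, 0.792 and 2.56 TPM, higher in both 2-digit libraries than in any 1-digit one, as were the B cell markers given later.

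Adhesion genes had the CD11b/CD18 integrin at their head. Itgb2 and Itgam, its chains, averaged 810.2 ± 145 and 799 ± 107 TPM, while Itgal and Itgax, of the related integrins, averaged 94.6 ± 22.996 and 20.05 ± 8.27 TPM. Selplg, the ligand of P-selectin, averaged 285 ± 75.3 TPM. Cd44 averaged 608 ± 122 TPM, Cd177 508 ± 167 TPM, Cd47 381 ± 56.8 TPM and Icam1 213 ± 41.1 TPM. Itgb6 and Jam3 were absent, and Cdh5 and Sele, of endothelium, lay at 0.126 ± 0.0924 and 0.173 ± 0.0672 TPM.

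Cytokine receptors were 84, of which 54 were expressed and 8 absent. Tnfrsf1b, the TNF receptor of leukocytes, averaged 645 ± 66.99 TPM, against 124 ± 17.4 TPM for Tnfrsf1a. Il1r2, the decoy receptor of IL-1, had 296, 572, 416, 495 and 617 TPM, whereas the signalling Il1r1 had 1.76, 0.322, 6.17, 1.14 and 1.83 TPM. Csf2rb and Csf2ra, of the GM-CSF receptor, averaged 295 ± 32.4 and 107 ± 15.2 TPM. Il10rb averaged 290.3 ± 28.9 TPM, Il10ra 62.004 ± 14.4 TPM, Il4ra 190.1 ± 51.1 TPM, and the chains of the type I interferon receptor, Ifnar1 and Ifnar2, 101 ± 23.4 and 117 ± 32.3 TPM. Among the absent were Epor, Prlr, Il22ra1, Il20ra, Il13ra2, Tnfrsf17 and Pdgfrb, and Il17rc and Il23r lay at 0.0958 ± 0.0668 and 0.114 ± 0.0233 TPM.

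Paired immunoglobulin-like receptors were the largest group of receptors by share of TPM. Lilr4b had 2199, 1562, 2959, 4095 and 4997 TPM and the inhibitory Lilrb4a 1702, 1033, 2929.8, 4025 and 4783 TPM. Both were lower in both 2-digit libraries than in any 1-digit one. Tyrobp, the adaptor of activating members, had 3267, 3913, 2266, 3309 and 2919.9 TPM. Cd300lf averaged 708 ± 182 TPM, Pirb 436 ± 112 TPM, Cd33 416 ± 137 TPM, Siglece 355 ± 99.6 TPM, Sirpa, the receptor of Cd47, 269 ± 48.2 TPM and Trem1, which amplifies inflammation, 264 ± 98.3 TPM. Cd274 (PD-L1) averaged 178 ± 46.7 TPM, Pdcd1 1.62 ± 0.672 TPM and Oscar was absent.

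Of 51 receptors and enzymes for purines and lipid mediators 28 were expressed and 7 absent. Mrgpra2b had 641, 1439.5, 736, 778 and 1408 TPM and its close copy Mrgpra2a 150.3, 364, 210.5, 202 and 352 TPM. Entpd1 (CD39), which degrades extracellular ATP, averaged 235 ± 103 TPM, P2rx4 88.4 ± 35.2 TPM and P2ry2 48.6 ± 6.102 TPM. Of the adenosine receptors Adora2b and Adora2a averaged 44.8 ± 7.28 and 22.3 ± 6.099 TPM and Adora1 was absent. The prostaglandin receptors Ptgdr, Ptgdr2 and Ptgfr were absent, while Ptger4 and Ptger2, for prostaglandin E2, averaged 14.7 ± 5.61 and 10.7 ± 3.52 TPM.

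**Figure D4:**
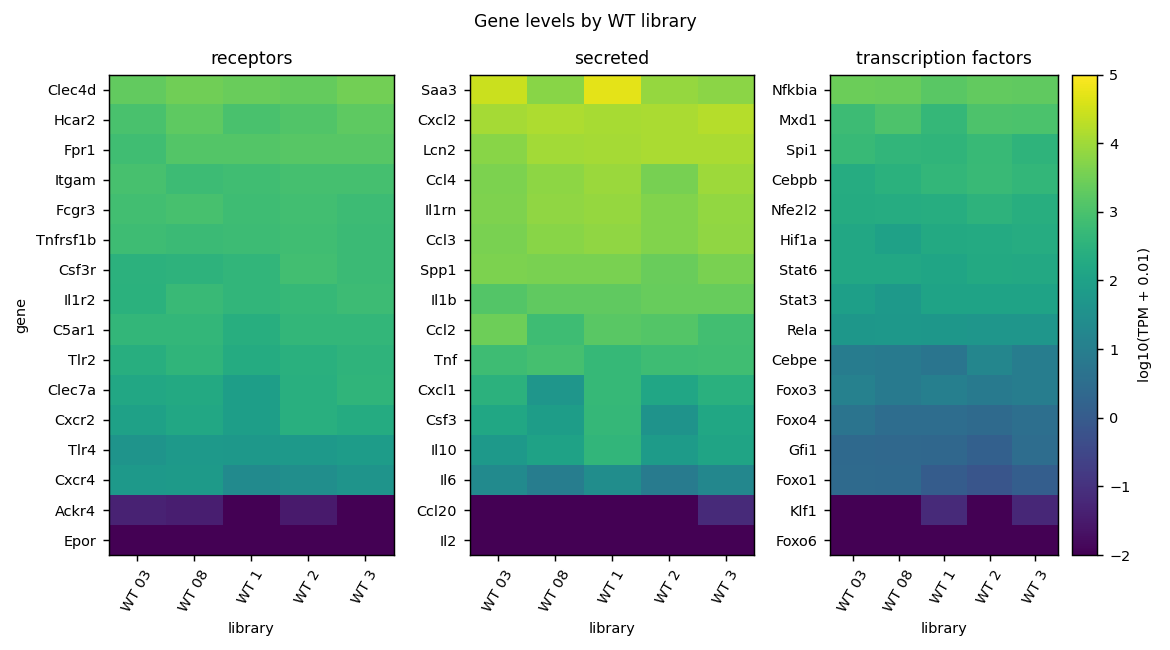
TPM of receptors, secreted factors and transcription factors in each WT library (columns WT 03, WT 08, WT 1, WT 2, WT 3), shaded on a log10 scale of TPM + 0.01. Each row is 1 gene, ordered by mean within its group, with absent genes at the foot of each group.

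The listed chemokines held 3.63% of the TPM, beside 4.65% for all receptor lists together. Cxcl2, a ligand of Cxcr2, had 11686, 13863, 11758, 12647 and 16492 TPM and was the most even of the 10 leading genes, with a CV of 15.01%. Ccl4 and Ccl3, chemokines that attract phagocytes, had 4121, 6461, 9075, 3582 and 9638 and 3893, 5787, 6891, 4807 and 7077 TPM. The ratio of Ccl4 to Ccl3 was 1.06, 1.12, 1.32, 0.745 and 1.36, so their order changed in WT 2. Ccl6 averaged 2082 ± 575 TPM, Cxcl3 1891 ± 668 TPM and Ccl9 1048 ± 392 TPM. Ccl2 and Ccl7, ligands of Ccr2, had 2914, 678, 1597, 1357 and 775 and 1904, 336, 1191, 961 and 720.2 TPM, WT 03 being highest and WT 08 lowest for both. Cxcl1, the chemokine KC, averaged only 253 ± 169 TPM, below Cxcl2 in 5 of 5 libraries. Ccl19, Ccl20 and Cxcl17 were absent, Cxcl12 did not exceed 0.105 TPM in any library and 22 of 37 chemokines were expressed.

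The IL-1 family was present as agonists and antagonists. Il1rn, which encodes the receptor antagonist, had 4489, 6979.9, 7875, 4681 and 7198 TPM and Il1b 1338, 1912, 2013, 2329.9 and 2375 TPM, so the antagonist's mRNA exceeded that of the cytokine in all 5 libraries, by a ratio of 3.36, 3.65, 3.91, 2.01 and 3.03. Il1f9 (IL-36 gamma) averaged 1643 ± 536 TPM and Il1a 489 ± 229 TPM. Il1b, Il1f9 and Il1a were each lower in both 2-digit libraries than in any 1-digit one in TPM, an order that only Il1a of these kept after rescaling. Il10 had 61.2, 106, 394, 70.5 and 123 TPM, and its mean of 151 ± 138 TPM was 90.2 TPM without WT 1. Il6, Il12b and Il23a were low, at 16.6 ± 7.89, 3.31 ± 1.55 and 13.03 ± 3.597 TPM. Of 40 interleukins 17 were expressed, and Il2, Il3, Il9, Il17d, Il20, Il21, Il24, Il25, Il31 and Il1f5 were absent.

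Other factors included Spp1 and Thbs1. Spp1 (osteopontin) averaged 3672 ± 636 TPM and Thbs1 (thrombospondin 1) 3005 ± 623 TPM, above Tnf at 681 ± 128 TPM. Osm, a cytokine of the IL-6 family, averaged 286 ± 84.7 TPM, Csf1 318 ± 157 TPM and Tgfb1 158 ± 27.7 TPM. Csf3, which encodes G-CSF, had 148, 80.5, 459, 39.2 and 151 TPM, the highest library again being WT 1. Vegfa averaged 36.8 ± 12.3 TPM and Csf2 1.25 ± 0.439 TPM. Interferons were at the floor, with Ifna1, Ifna2, Ifna4 and Ifnl2 absent and Ifnb1 at 0.647, 0.288, 0.535, 0.0585 and 0.604 TPM, and Epo, Thpo, Igf2 and Bdnf were absent as well.

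Complement and acute phase genes after Saa3, Lcn2 and Retnlg included Hp (haptoglobin, 1886 ± 649.5 TPM), F10 (coagulation factor X, 959 ± 228 TPM), Chil1 (929 ± 368 TPM), C3 (468 ± 73.8 TPM) and Cfp (properdin, 264 ± 56.3 TPM). The liver fibrinogen chains Fga, Fgb and Fgg and the terminal complement genes C6, C7, C8a and C9 were absent. Retnla, a marker of alternatively activated macrophages, had 90.4, 44.3, 124, 659 and 541 TPM. Wfdc17, Wfdc21 and Slpi, inhibitors of the whey acidic protein type, averaged 3690.0 ± 812, 2306 ± 477 and 1714 ± 515 TPM, and Plaur, the urokinase receptor, 1274 ± 632 TPM.

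Transcription factors were 166 listed genes, of which 126 (75.9%) were expressed and 9 absent, beside 41.2% and 34.7% of all protein-coding genes. Mxd1, a MAX partner that rises with granulocyte maturation, had 644, 1138, 469, 1082 and 1016 TPM and was highest in the 3 libraries with the most S100a9. Spi1 (PU.1) averaged 436 ± 81.5 TPM, Cebpb 382 ± 133 TPM, Klf6 361 ± 75.1 TPM and Ets2 357 ± 61.7 TPM. Other factors of granulopoiesis were lower: Cebpa averaged 10.8 ± 4.13 TPM, Cebpe 9.32 ± 4.204 TPM, Gfi1 2.28 ± 0.616 TPM and Myb 0.975 ± 0.456 TPM. Klf1, of the erythroid lineage, was absent, Mecom averaged 0.0508 ± 0.0447 TPM and Hoxa9 had 0, 0.0743, 0.0127, 0 and 0.138 TPM, and Pax5 and Ebf1, of B cells, had 14.8, 15.3, 1.57, 0.476 and 3.298 and 3.92, 3.84, 0.499, 0.504 and 1.13 TPM.

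All 15 of 15 genes of the NF-kB pathway were expressed. Its feedback inhibitors stood above its subunits. Nfkbia (I kappa B alpha) had 2602, 2541, 1597, 2105 and 1990.2 TPM and Tnfaip3 (A20) 528, 452, 812, 675 and 1070 TPM, while Nfkb1, Relb, Rela and Rel averaged 245 ± 43.2, 106 ± 20.4, 50.2 ± 2.23 and 40.7 ± 18.6 TPM. All 27 of 27 immediate early genes were expressed too, led by Ier3 at 795 ± 201 TPM, Btg1 at 529 ± 92.6 TPM, Junb at 518 ± 102 TPM and Dusp1 at 517 ± 107 TPM, with Fos at 127 ± 50.1 TPM and Egr1 at 71.2 ± 30.2 TPM.

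Of the IRF and STAT factors 15 of 16 were expressed. Stat6 averaged 162 ± 18.6 TPM, Stat3 97.9 ± 21.96 TPM, Irf5 92.5 ± 33.2 TPM and Irf8, a factor of the monocyte branch, 30.5 ± 18.2 TPM. Irf1 had 171, 96.3, 56.3, 319 and 102 TPM and Irf7 119, 192, 35.2, 126 and 115 TPM. The interferon-stimulated genes that follow such factors were expressed in 38 of 41 cases, from Slfn4 at 1666, 1818, 2151, 4159 and 5333 TPM and Ifitm2 at 1861 ± 305 TPM to Isg15 at 231, 353, 62.97, 189.7 and 184 TPM and Mx1 at 12.2, 2.42, 1.35, 5.22 and 2.16 TPM. WT 1 was the lowest library for Irf1, Irf7 and Isg15.

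Stress and nutrient factors were led by Nfe2l2, Xbp1 and Hif1a at 247 ± 53.1, 172 ± 29.6 and 166 ± 42.5 TPM. Foxo3, the gene deleted in the other mice of the series, had 11.7, 7.63, 10.3, 7.61 and 9.299 TPM, the highest of its family in all 5 libraries. Foxo4 averaged 3.51 ± 0.89002 TPM, Foxo1 1.61 ± 0.881 TPM and Foxo6 was absent. Of the nuclear receptors and lipid factors Srebf2 averaged 98.995 ± 6.73 TPM, Nr1h2 (LXR beta) 96.9 ± 14.7 TPM, Ppard 26.1 ± 6.78 TPM and Pparg 5.28 ± 2.88 TPM, with Ppara, Nr1h4, Nr2f1 and Rxrg absent.

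Metabolic genes were expressed in 317 of 398 cases (79.6%) and absent in 26, beside 41.2% and 34.7% of all protein-coding genes. Glycolysis was led by Gapdh at 3077 ± 779 TPM, Pkm at 1294 ± 264 TPM, Aldoa at 1131 ± 235 TPM, Ldha at 1054 ± 299 TPM and Eno1 at 1029 ± 309 TPM. Of the glucose transporters Slc2a1 averaged 203 ± 21.4 TPM, Slc2a6 157 ± 66.02 TPM and Slc2a3 34.5 ± 9.87 TPM, and of the hexokinases Hk3 159 ± 25.2 TPM, Hk1 66.2 ± 10.2 TPM and Hk2 26.9 ± 11.1 TPM. Slc16a3, which exports lactate, averaged 522 ± 53.2 TPM and was even between libraries (CV 10.2%). Slc2a2, Slc2a4, Pgk2, Gapdhs and Pgam2, of liver, muscle or testis, were absent. Pygl, which breaks down glycogen, averaged 250.2 ± 65.9 TPM, whereas the gluconeogenic Pck1 and G6pc and the liver glycogen synthase Gys2 were absent and Fbp1 lay at 0.111 ± 0.0599 TPM.

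The pentose phosphate pathway, which supplies NADPH to the oxidase, had 8 of 9 genes expressed. Taldo1 averaged 411 ± 45.1 TPM, Pgd 287 ± 51.4 TPM, Tkt 227 ± 16.98 TPM and G6pdx 72.9 ± 5.61 TPM, the last 2 with a CV of 7.47% and 7.70%. Its median CV was 18.6%.

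All 26 of 26 TCA cycle genes and 69 of 70 nuclear oxidative phosphorylation subunits were expressed. Acod1, which makes itaconate from cis-aconitate, stood far above the cycle's own enzymes at 1105, 1819, 1107, 1337 and 2001 TPM. The next was Mdh2 at 135 ± 35.7 TPM, and Cs, citrate synthase, averaged 56.2 ± 9.07 TPM, Idh1 17.1 ± 9.83 TPM and Idh2 6.55 ± 2.46 TPM. The median was 77.7 TPM over the 70 nuclear subunits and 32.4 TPM over the TCA cycle list, which counts Acod1. Over the list of glucose uptake and glycolysis, with 6 of 38 genes absent and 7 in between, it was 22.4 TPM. That list held more of the TPM in sum, 1.19% against 0.755% for the nuclear subunits and 0.243% for the TCA cycle list. With Acod1 the TCA cycle list summed to 2223, 2432, 2059, 2088 and 2657 TPM. Of the nuclear subunits, 9 of 69 had both 2-digit libraries above all 1-digit ones, against 11.7% of all genes averaging 1 TPM or more. After rescaling 38 of 69 had this order, against 20.2% of all genes. Both 2-digit libraries lay below all 1-digit ones for 0 of 69, and for 3 after rescaling, against 13.9% and 14.7% of all genes. The order of the nuclear subunits between the columns thus depends on the scaling. Of the mitochondrial genome, mt-Co1 had 4516, 2826, 3933, 2666 and 3379 TPM and mt-Cytb 1387, 729, 1352, 991 and 1134 TPM, lowest in WT 2 and in WT 08.

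Lipid droplet genes were led by Plin2, G0s2 and Hilpda. Plin2, the coat protein of lipid droplets, had 2057, 1253, 2175, 1453 and 1137 TPM. G0s2, which inhibits the lipase encoded by Pnpla2, had 675, 1757, 492, 788 and 1008 TPM and Hilpda, another inhibitor of it, 576, 731, 714, 386 and 619 TPM, against 26.9 ± 8.69 TPM for Pnpla2. Dgat1 averaged 221 ± 74.3 TPM, Soat1 120.1 ± 37.3 TPM and Lipe 10.1 ± 3.61 TPM, and Plin1 and Plin4 of adipocytes were absent. Of the synthetic enzymes Acly averaged 54.7 ± 8.25 TPM, Fasn 6.29 ± 2.88 TPM and Acaca 2.701 ± 1.06 TPM. Fatty acid oxidation had 29 of 35 genes expressed, led by the binding protein Fabp5 at 296 ± 153 TPM and Acsl5 at 109.8 ± 55.9 TPM, with Acadl at 70.3 ± 10.98 TPM, Hadha at 37.2 ± 8.695 TPM and Cpt2 at 3.34 ± 1.22 TPM. Apoe averaged 151 ± 40.7 TPM, and Apob and Vldlr were absent.

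Eicosanoid genes were headed by Alox5ap, the protein that presents arachidonate to 5-lipoxygenase, with 963, 1192, 1319, 1873 and 1880.4 TPM. Alox5 itself averaged 33.3 ± 12.8 TPM and Lta4h, which makes leukotriene B4, 32.1 ± 7.56 TPM. Ptgs2 and Ptges, which make prostaglandin E2, had 155, 100.5, 323, 113 and 315 and 260.3, 60.7, 252, 64.8 and 71.5 TPM. Ptgs1 averaged 4.98 ± 3.48 TPM and Ptgds, Alox12b and Pla2g2d were absent.

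Arginine and iron metabolism had a few high genes. Arg1, which splits arginine, had 2239.8, 385, 2359, 1786 and 1323 TPM, against 33.96, 26.2, 105, 43.5 and 26.2 TPM for Nos2, while Nos1 and Nos3 were absent. Hdc, which makes histamine, had 822, 1709, 767, 1178 and 1752 TPM and Slc7a11, the cystine importer, 178, 318, 442, 251 and 433 TPM. Among antioxidant genes Prdx5 averaged 1669 ± 304 TPM, Sod2 1163 ± 320.1 TPM, Hmox1 968 ± 319 TPM and Gpx1 794 ± 296 TPM. The metallothioneins Mt1 and Mt2 had 1232, 300.2, 1708, 433 and 619 and 866, 229, 1740.4, 391 and 646 TPM and Prdx1 621, 395, 1211, 337 and 328 TPM, each highest in WT 1 with WT 03 second. Slc11a1, the phagosomal metal pump, averaged 610.5 ± 127 TPM and Hamp 6.02 ± 3.89 TPM.

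Survival genes were led by Bcl2a1b, Mcl1 and Birc3, at 893 ± 66.9, 870.3 ± 283 and 392 ± 80.2 TPM, while Bcl2 averaged 2.72 ± 1.34 TPM and Hrk was absent. Bcl2a1a, Bcl2a1b and Bcl2a1d are close copies whose reads could have been split between them. Of 43 cell cycle and replication genes 36 (83.7%) were expressed and 0 absent, beside 41.2% and 34.7% of all protein-coding genes. Their median was 6.24 TPM. Genes that mark division were low but not absent: Mki67 averaged 6.24 ± 3.16 TPM, Top2a 7.15 ± 2.69 TPM and Ccnb1 2.14 ± 1.07 TPM. The inhibitors Cdkn2d and Cdkn1a averaged 93.3 ± 32.7 and 87.5 ± 27.2 TPM. B2m averaged 3540.2 ± 333 TPM, H2-D1 1693 ± 294 TPM and H2-K1 144 ± 26.7 TPM, and of MHC class II H2-Ab1 had 42.3, 34.5, 14.5, 9.05 and 20.5 TPM. Lysosomal genes were expressed in 38 of 38 cases, led by Ctsd, Ctsb and Psap at 2939 ± 513, 2196 ± 639 and 1919 ± 999 TPM.

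Markers of other peritoneal cells were present at levels that differed between libraries. B cell genes were the clearest, 12 of 20 being expressed. Their TPM summed to 2834, 4969, 1723, 172 and 963, and 19 of the 20 had both 2-digit libraries above all 1-digit ones (18 after rescaling). Over all genes averaging 1 TPM or more this share was 11.7% in TPM and 20.2% after rescaling. Cd79a had 166, 182, 20.5, 3.93 and 21.8 TPM and Igkc 1066, 2371, 1049, 69.2 and 450.3 TPM. The T cell list behaved alike, with 11 of 17 expressed, 15 of the 15 genes averaging 1 TPM or more higher in both 2-digit libraries (14 after rescaling), and sums of 151, 158, 33.0, 38.8 and 56.3 TPM. In bulk RNA more cells of a type and more RNA per cell cannot be told apart, and the part of these cells in the levels of other genes was not tested.

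Macrophage genes ran in another order. Of 20 genes 13 were expressed, and their TPM summed to 6355, 2482, 3771, 4412 and 3900. Adgre1 (F4/80) had 267, 38.2, 206, 93.1 and 104 TPM, C1qb 311, 91.1, 290.0, 189 and 201 TPM and Csf1r 136, 45.3, 107, 110.0 and 77.01 TPM, each lowest in WT 08. The defining genes of resident large peritoneal macrophages, Gata6 and Timd4, lay at 0.102, 0.0265, 0.6601, 0.0997 and 0.409 and 1.62, 0.285, 3.44, 1.61 and 1.895 TPM. Ccl2, Ccl7 and Arg1 were also lowest in WT 08, and the part of macrophages in their levels was not tested. Monocyte genes were expressed in 11 of 12 cases, with Ly6c2 at 301, 500.2, 208, 462 and 437 TPM, Ccr2 at 23.9 ± 16.3 TPM and Cx3cr1 at 0.729, 0.351, 0.415, 1.16 and 0.392 TPM.

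Eosinophil genes were low, as were the mast cell genes Cma1 and Cpa3. The whole list of mast cell and basophil genes summed to 988, 1867, 896, 1207 and 1932 TPM. It held 1 gene averaging at least 100 TPM, and its sums ranked the libraries in the same order as Hdc did. Siglecf had 9.12, 2.58, 3.81, 13.4 and 18.1 TPM, Ccr3 9.08, 1.85, 2.85, 12.5 and 14.6 TPM and Epx was absent, and the mast cell genes Cma1 and Cpa3 had 56.5, 54.6, 36.9, 6.87 and 60.7 and 25.4, 21.2, 27.5, 4.805 and 42.5 TPM, with WT 2 lowest. Of the listed epithelial genes 0 of 17 were expressed, Epcam having the highest mean at 2.29, 5.27, 1.23, 0.248 and 0.465 TPM. Their TPM summed to 19.7, 25.9, 4.35, 4.08 and 3.44. Of the 6 that averaged 1 TPM or more 5 had both 2-digit libraries above all 1-digit ones and 1 had both below, in TPM as after rescaling. Over all such genes 11.7% had both above and 13.9% both below in TPM, and 20.2% and 14.7% after rescaling. Muc2, a mucin of the gut, had 3.68, 4.07, 0.0832, 0.0246 and 0.0253 TPM and Tff3, a peptide secreted with mucins, 2.71, 3.28, 0, 0 and 0 TPM. Of 18 mesothelial, stromal and endothelial genes 1 was expressed, Pecam1 at 24.6 ± 7.44 TPM, which PMNs also carry. Hbb-bs, of red cells, had 191, 43.8, 8.57, 0.741 and 5.87 TPM and Pf4, of platelets and some macrophages, 384, 67.2, 376, 193 and 306 TPM.

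**Figure D5:**
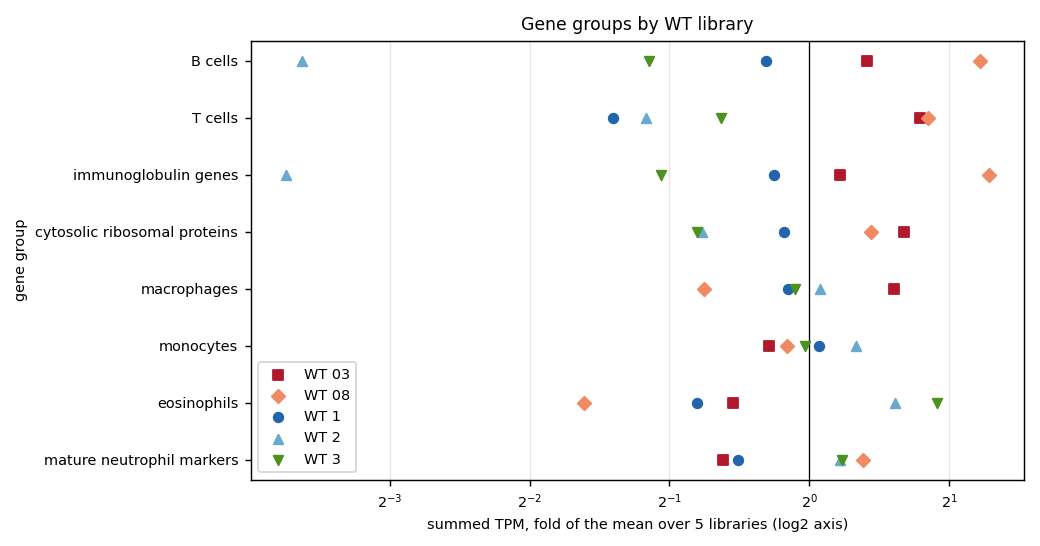
Summed TPM of 8 gene groups in each WT library (WT 03, WT 08, WT 1, WT 2, WT 3), each as a fold of the group's mean over the 5 libraries, on a log2 axis. B cell and T cell genes, ribosomal proteins and immunoglobulin genes are highest in WT 03 or WT 08, and macrophage genes in WT 03.

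The spread between libraries was summarised by the CV over the 5 mice. Its median was 33.2% over the 11973 genes that averaged 1 TPM or more (quartiles 23.7% and 46.2%), and 1962 genes (16.4%) lay under 20%. Within the 1-digit libraries alone the median was 26.1%. Between pairs of libraries, the correlation of log2(TPM + 1) across these genes was 0.906 to 0.933 for the 6 pairs across the numbering and 0.943 to 0.964 for the 4 pairs within it. The share of genes over 2-fold apart overlapped between the kinds of pair, at 11.5 to 25.4% across the numbering and 5.58 to 18.3% within it. WT 03 and WT 08 differed by 18.3% of genes, more than WT 1 and WT 03 at 11.5%. Genes are not independent replicates, and these values only describe the libraries. WT 2 and WT 3 were the closest pair, with 5.58% of genes over 2-fold apart, and WT 08 and WT 1 the farthest, with 25.4%. No 2 libraries were copies of each other.

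The most variable protein-coding genes averaging 20 TPM or more were Hba-a2 (CV 161%), Hbb-bs, Slc13a3, Eif2s3y, Orm1, Ly6d, Cd79a, Hspa1b, Cd79b and Cd300ld3 (101%). They hold red cell, Y-linked and B cell genes beside an acute phase gene and the heat shock gene Hspa1b, which had 42.8, 200.4, 52.8, 28.3 and 25.7 TPM. Slc13a3, a carboxylate transporter, had 111, 3.75, 33.6, 3.54 and 5.32 TPM and Cd300ld3 74.5, 8.78, 22.2, 11.3 and 17.6 TPM, both highest in WT 03. The 10 least variable included Pias4 (CV 3.20%), Atn1, Arfgef2, Oser1, Tmem63a, Arf5, Rela, Rnf185 and Tmem127 (4.58%). Rela, the p65 subunit of NF-kB, had 50.6, 53.9, 49.3, 48.5 and 48.6 TPM. Arf5, a small GTPase of membrane traffic, was the most abundant of these at 173 ± 6.88 TPM.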

How the data were processed

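RNA of casein-elicited PMNs was sequenced from 5 WT and 6 FOXO3 KO mice, and only the 5 WT columns of the deposited table were used. The authors quantified expression as TPM for 54164 genes. The same table holds the authors' average, over all libraries, of the normalized counts of each gene, a deposited signal not used for any result, and the authors' own comparison of the genotypes (fold changes and p-values), which was not used. The submitters' processing notes name STAR 2.6.1d, kallisto 0.46.0, DESeq2 and the builds mm10 and hg38, with no role for any. There were 0 value columns of no sample. The table gives no counts, so depth is unknown and no count model was fitted.

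Columns WT 1, WT 2 and WT 3 carry the numbers of labelled mice, whereas WT 03 and WT 08 were assigned to the WT group by name and not to single labelled mice. Since all libraries belong to 1 group, no test was made: levels are described by mean, SD and CV. Row names were matched to GENCODE M21 (53628 of 54164) for gene type and position. Of 1634 symbols in 62 lists, 1587 had a row. The members and lists were chosen with earlier results of these data known. Genes named are the markers of the cells, the 25 highest by mean, up to 6 of the highest members of a list, absent members, textbook members in between, the 10 most and 10 least variable protein-coding genes averaging 20 TPM or more, and Foxo3. Other genes were named for their role after their values were seen. Some genes that these rules name are not reported here. Promoter sequences are from RefSeq. The alternatives were other thresholds, denominators, scalings, measures of spread and sets of libraries, those by column numbering chosen after seeing the data. The calculations were tested on simulated data, in Python 3.11.15 with numpy 2.4.6, pandas 2.3.3 and matplotlib 3.10.9.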

Additional observations from a re-analysis of the deposited data

Results flagged for a closer look

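In a group of 5 libraries, 1 library was taken to stand apart where its gap to the nearest other exceeded 0.71 of the whole range. Of 327 genes named with values, 19 had such a library, and of 29 class shares and 8 library quantities 0 did. For independent, normally distributed values chance alone gives about 1 in 20. The genes are not independent, and some were named for their spread in these libraries, so the count cannot be judged against that rate. WT 1 was the library apart for 9 of the 19 genes. No explanation was weighed.

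WT 1 was highest for Csf3 (the gene of G-CSF) at 459 TPM, against 39.2 to 151 TPM in the others, and for Il10 at 394 TPM, against 61.2 to 123 TPM in the others. WT 1 was highest for Il1r1 (the signalling IL-1 receptor) at 6.17 TPM, against 0.322 to 1.83 TPM in the others, and for Nos2 (the inducible nitric oxide synthase) at 105 TPM, against 26.2 to 43.5 TPM in the others. WT 1 was highest for Orm1 at 129 TPM, against 8.498 to 28.1 TPM in the others, and for P2ry2 (a receptor of ATP and UTP) at 59.4 TPM, against 44.5 to 47.0 TPM in the others. WT 1 was highest for Ppard (a nuclear receptor of lipids) at 38.1 TPM, against 22.001 to 24.2 TPM in the others, and for Saa1 (an acute phase protein) at 50.5 TPM, against 5.09 to 7.78 TPM in the others. WT 1 was lowest for C5ar1 (the C5a receptor) at 252 TPM, against 418 to 437 TPM in the others. WT 03 was highest for Cd300ld3 at 74.5 TPM, against 8.78 to 22.2 TPM in the others, and for Hbb-bs (a hemoglobin chain) at 191 TPM, against 0.741 to 43.8 TPM in the others. WT 03 was highest for S100a4 (a calcium-binding protein) at 1641 TPM, against 340.1 to 625 TPM in the others, and for Slc13a3 (a carboxylate transporter) at 111 TPM, against 3.54 to 33.6 TPM in the others. WT 03 was lowest for Fpr1 (a formyl peptide receptor) at 717 TPM, against 1342 to 1505 TPM in the others. WT 08 was highest for Hspa1b (a heat shock protein) at 200.4 TPM, against 25.7 to 52.8 TPM in the others. WT 2 was lowest for Spp1 (osteopontin) at 2556 TPM, against 3792 to 4139 TPM in the others. WT 3 was highest for Ctsg (cathepsin G) at 2.80 TPM, against 0.122 to 0.838 TPM in the others, and for Mpo (myeloperoxidase) at 3.00 TPM, against 0 to 0.571 TPM in the others. WT 3 was highest for Tgfb1 at 207 TPM, against 141 to 150.5 TPM in the others.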

How the results depend on the processing

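No paired analysis was possible because the 5 libraries belong to 1 group and no result comes from a test. With 5 TPM as the threshold 6285 genes were expressed in place of 9845, and at 1 TPM leaving out 1 library gave 9911 genes (without WT 03) to 10289 (without WT 08). The share of ribosomal proteins was 7.70% in the 2-digit libraries alone, chosen after seeing the data. The median CV of 33.2% was 29.4% at a mean of at least 5 TPM, 61.8% with no filter, 27.6% after median-of-ratios factors, 27.1% after quantile normalization and 26.1% in the 1-digit libraries alone, and leaving out 1 library gave 30.0% to 34.5%. As an SD on the log2 scale the median was 0.41 for log2(TPM + 1) and 0.48 for log2(TPM + 0.1). The number of genes split by the column numbering was 3064, and 1859 at a mean of at least 5 TPM. It was 3756 to 7554 with 1 library left out (5120 without WT 1, 7554 without WT 03 and 7498 without WT 08), where fewer libraries make a split easier to meet. The log2 factors by which the median-of-ratios scaling divided the TPM ran from -0.34 in WT 08 to 0.29 in WT 03. Median-of-ratios factors gave 2411 genes above and 1752 below, against 1398 and 1666 in TPM. Read depth is unknown, so its limits could not be set.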
